A study of Mus musculus with 6 samples.

Results

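The glucocorticoid receptor gene *Nr3c1* and 9 genes well known to respond to glucocorticoids were followed in E18.5 mouse hearts with and without *Pkm1*. The 10 genes were taken by name, with no threshold on measured values but with earlier results of these data known, as the rows of the count table with the symbols *Nr3c1*, *Fkbp5*, *Tsc22d3*, *Errfi1*, *Sgk1*, *Klf9*, *Zbtb16*, *Hif3a*, *Mt1* and *Mt2*. All 10 were among the 13809 genes of the table, and all 10 were among the 13804 genes that passed the filter on low counts. Hearts of WT and *Pkm1*-KO embryos gave 3 libraries each, made from total RNA after removal of ribosomal RNA. The tissue is heart by the labels and ventricle by the text of the study. KO embryos carried on both alleles a CRISPR/Cas9 deletion in the *Pkm* exon that only the PKM1 isoform contains. The line was made in BDF1 hybrid zygotes, the deletion is not limited to the heart, and the labels name no treatment of either genotype.

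Glucocorticoids reach the fetus from its own adrenal glands and from the mother, and their level rises before birth. They bind the glucocorticoid receptor, which is held in the cytoplasm by chaperones, and the bound receptor enters the nucleus and attaches as a dimer to a palindromic DNA element, the glucocorticoid response element (GRE). In the late fetal heart this signal is known for promoting structural and functional maturation of cardiomyocytes. Hormone was not measured here, and most of these genes also respond to other signals.

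Library totals were 15597756 to 19875546 counts in WT and 15567624 to 18577404 in KO, at which 3 counts correspond to 0.151 to 0.193 CPM (a gene's count scaled to a common library total). Levels below are CPM scaled by trimmed mean of M-values (TMM). *Pkm*, the targeted gene, was at 1318 ± 41.1 CPM in WT and 542 ± 10.1 in KO (SD, n = 3 each), which counts both of its isoforms together. Libraries are named a to c within a genotype. WT c stood somewhat apart, since a chi-square per degree of freedom over all genes was 3.76 and 3.24 against WT a and WT b, and 1.56 to 1.88 for the other pairs within a genotype. *Xist*, the RNA of the inactive X chromosome, was at 5.26 ± 0.50 CPM in WT and 2285 ± 47.6 in KO, and each of *Kdm5d*, *Eif2s3y*, *Uty* and *Ddx3y*, all on the Y chromosome, had no count in any KO library. Genotype and the sex of the embryos therefore cannot be told apart in any comparison that follows.

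Glucocorticoid-responsive genes were mostly lower in KO hearts, by very different amounts. *Klf9* and *Zbtb16*, which encode transcription factors, fell to 0.316 and 0.325 of their WT levels, and the kinase gene *Sgk1* fell by 0.71 on the log2 scale. *Fkbp5*, *Errfi1* and *Tsc22d3* fell by 0.34 or less on the same scale, *Hif3a* was slightly higher, and *Nr3c1*, *Mt1* and *Mt2* did not pass the test. In counts, 6 of the 10 were lower and 1 was higher at an adjusted p under 0.05 (edgeR's quasi-likelihood test, p-values adjusted by Benjamini-Hochberg across the 13804 genes). Of all genes tested, 30.3% passed by the same rule, 15.7% lower and 14.6% higher. A fall of at least 1.5-fold that passed the test was seen for 3 of the 10 genes, beside 3.2% of all genes, and a rise of that size for none of the 10, beside 2.99%. The 3 KO libraries lay wholly below the 3 WT libraries for 5 of the 10 and wholly above for 1, beside 21.4% and 21% of all genes (42.4% in either direction). The median log2 fold change of the 10 was -0.24, and that of all genes tested was 0.0017. In bulk tissue, fewer cells of a type and less RNA per cell cannot be told apart.

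**Figure D1:**
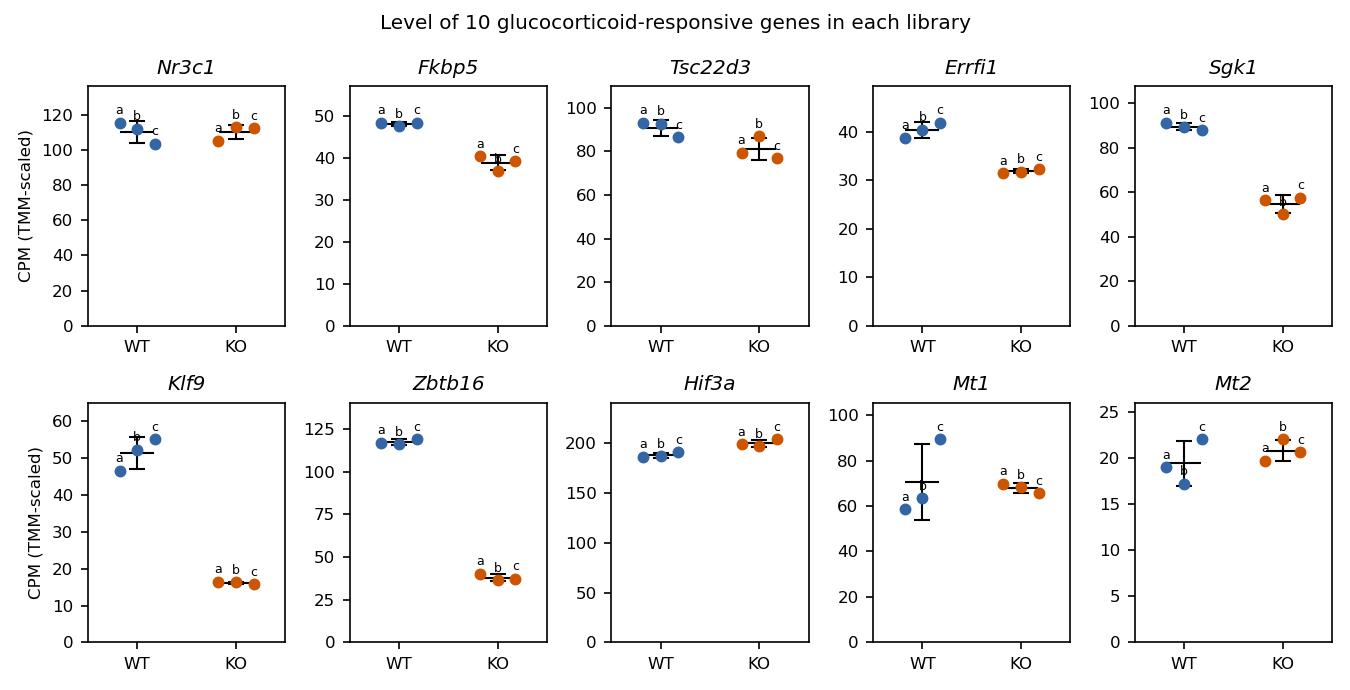
TMM-scaled CPM of each of the 10 genes in the 3 WT and 3 KO libraries, with 1 point per library (letters a to c), a horizontal mark at the mean and error bars of 1 SD. Each axis starts at 0. The KO points of *Klf9*, *Zbtb16* and *Sgk1* lie far below their WT points, while those of *Nr3c1*, *Mt1* and *Mt2* overlap.

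The receptor gene came first. *Nr3c1* (chromosome 18) was at 115, 112 and 103 CPM in WT a, b and c, and at 105, 113 and 112 CPM in KO a, b and c. The groups overlapped, and the lowest library of the 6 was WT c. Its log2 fold change, KO over WT, was -0.0044 with an SE of 0.04 (edgeR's quasi-likelihood test, adjusted p = 0.951). The 95% interval of the KO level ran from 0.936 to 1.06 of the WT level.

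*Fkbp5* encodes a co-chaperone that lowers the hormone affinity of the receptor and is itself induced by it, which closes a feedback loop. The gene lies at chr17:28399094-28517527 on the minus strand (GRCm38). It was at 48.5, 47.6 and 48.4 CPM in the WT libraries and at 40.5, 36.9 and 39.3 CPM in the KO libraries. The groups did not overlap, the WT minimum being 1.17 times the KO maximum. *Fkbp5* fell by 0.30 on the log2 scale with an SE of 0.06 (edgeR's quasi-likelihood test, adjusted p = 1.24e-04). The size of this fall was modest beside those of *Klf9* and *Zbtb16*, with a 95% interval of the log2 fold change from -0.42 to -0.19.

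*Tsc22d3* encodes GILZ, a leucine zipper protein that restrains inflammatory transcription factors. It lies on the X chromosome (chrX:140539528-140600659, minus strand). It was at 93.2, 92.8 and 86.6 CPM in WT and at 79.5, 87.0 and 77.1 CPM in KO. KO b was slightly above WT c, so the groups overlapped, and the other 2 KO libraries were below every WT library. *Tsc22d3* fell by 0.17 on the log2 scale with an SE of 0.05 (edgeR's quasi-likelihood test, adjusted p = 0.00947). The call did not hold in all subsets of libraries: the adjusted p was 0.0519 without WT b, 0.0578 without KO a and 0.0842 without KO c. Of the 454 X-linked genes tested, 65 were lower and 47 were higher, with a median log2 fold change of -0.025. Among the 12810 autosomal genes tested, 2031 were lower and 1889 were higher, with a median of 0.0019. The shares of all genes tested were 15.7% lower and 14.6% higher. The part of the difference in *Xist* in the value of *Tsc22d3* was not tested.

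*Errfi1* encodes MIG6, a feedback inhibitor of the EGF receptor family. It lies at chr4:150853919-150868892 on the plus strand. It was at 38.8, 40.5 and 41.9 CPM in WT and at 31.5, 31.8 and 32.3 CPM in KO. All KO libraries were below all WT libraries and lay close together. *Errfi1* fell by 0.34 on the log2 scale with an SE of 0.06 (edgeR's quasi-likelihood test, adjusted p = 6.26e-05). The stretch before one of its 2 RefSeq start sites, at chr4:150854950-150855059 (GRCm38.p6, plus strand, 120 to 11 bases before the start), is shown because it holds the cyclic AMP response element TGACGTCA in capitals, which no other window of the 10 genes held.
Errfi1: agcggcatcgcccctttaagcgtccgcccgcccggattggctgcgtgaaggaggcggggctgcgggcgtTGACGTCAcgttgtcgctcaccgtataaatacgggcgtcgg

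*Sgk1* encodes a kinase that raises the activity of sodium channels and transporters and is a classical immediate target of corticosteroid receptors. The gene lies at chr10:21882184-21999903 on the plus strand and has 6 start sites among the RefSeq promoters. One of them carries a complete GRE palindrome, in which the half-site AGAACA and its reverse complement TGTTCT stand 3 bases apart, which is why the stretch from 250 to 101 bases before that start (chr10:21993640-21993789, GRCm38.p6, plus strand) is shown, with all 15 bases of the palindrome in capitals at -189 to -175.
Sgk1: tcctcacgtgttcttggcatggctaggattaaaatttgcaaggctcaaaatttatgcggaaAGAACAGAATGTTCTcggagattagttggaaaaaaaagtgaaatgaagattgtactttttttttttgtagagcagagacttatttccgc

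In expression, *Sgk1* separated clearly by genotype. It was at 91.2, 89.2 and 87.8 CPM in WT and at 56.3, 50.02 and 57.5 CPM in KO. The groups did not overlap, the WT minimum being 1.53 times the KO maximum. The log2 fold change was -0.71 with an SE of 0.05 and a 95% interval from -0.81 to -0.61 (edgeR's quasi-likelihood test, adjusted p = 1.62e-11). The counts do not separate the transcripts that begin at the different start sites.

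The transcription factor genes held the largest changes. *Klf9* encodes a Krüppel-like factor that is induced by glucocorticoids and thyroid hormone and mostly represses transcription. It lies at chr19:23141226-23168134 on the plus strand. It was at 46.6, 52.3 and 55.1 CPM in WT and at 16.4, 16.3 and 15.8 CPM in KO. The KO libraries were nearly equal, and the WT minimum was 2.83 times their maximum. *Klf9* fell by 1.66 on the log2 scale with an SE of 0.07 (edgeR's quasi-likelihood test, adjusted p = 1.81e-16). Only 41 of the 13804 genes had a lower log2 fold change than *Klf9*.

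*Zbtb16* encodes PLZF, a zinc finger repressor that is strongly induced by glucocorticoids in many cell types. It lies at chr9:48654297-48836222 on the minus strand. It was at 117, 116 and 119 CPM in WT and at 40.2, 36.6 and 37.3 CPM in KO. The WT libraries differed little from each other, and the WT minimum was 2.89 times the KO maximum. *Zbtb16* fell by 1.62 on the log2 scale with an SE of 0.05 (edgeR's quasi-likelihood test, adjusted p = 3.29e-20). Its change lay close to that of *Klf9*, with 95% intervals from -1.72 to -1.53 for *Zbtb16* and from -1.81 to -1.52 for *Klf9*.

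*Hif3a* encodes an oxygen-regulated factor of which some isoforms restrain the other hypoxia-inducible factors. It lies at chr7:17031507-17062427 on the minus strand. It was at 186, 187 and 191 CPM in WT and at 199, 197 and 204 CPM in KO. All KO libraries were above all WT libraries, by a small margin. The log2 fold change was 0.09 with an SE of 0.03 (edgeR's quasi-likelihood test, adjusted p = 0.0435). The call was lost without each of WT a, WT b, KO a, KO b and KO c, with adjusted p from 0.0687 to 0.168, by DESeq2 (adjusted p = 0.0988) and by edgeR's likelihood ratio test (adjusted p = 0.0524).

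**Figure D2:**
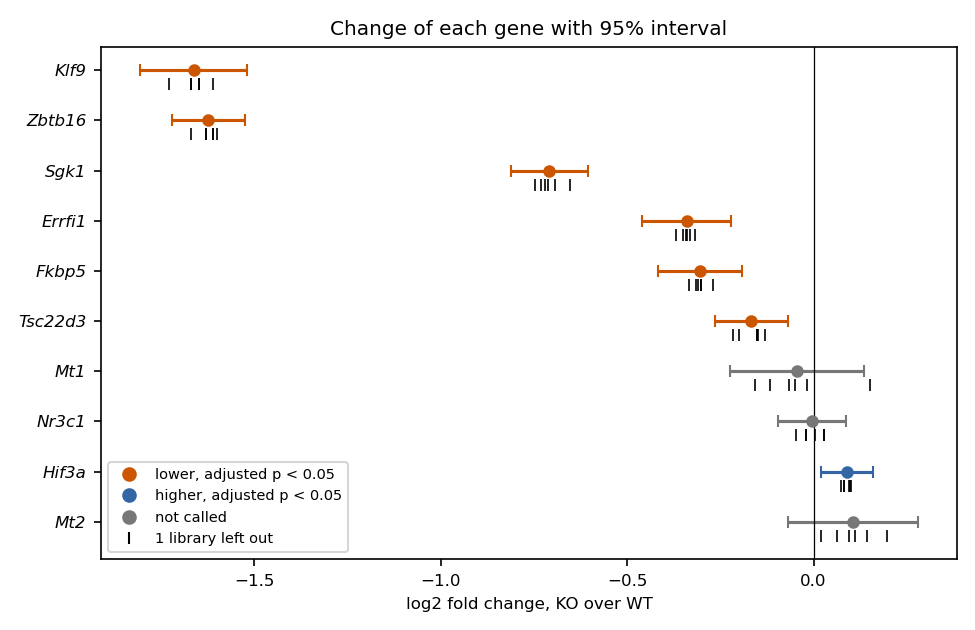
Log2 fold change, KO over WT, of each of the 10 genes, with its 95% interval from edgeR's quasi-likelihood fit, coloured by call. Black ticks show the 6 values obtained with 1 library left out. *Klf9*, *Zbtb16* and *Sgk1* lie well below 0, with narrow intervals, and the ticks of *Mt1* fall on both sides of 0, from -0.16 to 0.15.

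*Mt1* and *Mt2* encode metallothioneins, small cysteine-rich proteins that bind zinc and copper. They are neighbours on the plus strand of chromosome 8 (*Mt2* at chr8:94172664-94173568, *Mt1* at chr8:94179082-94180327), and are induced by glucocorticoids and, through metal response elements, by zinc. Stretches from 200 to 11 bases before their RefSeq starts (GRCm38.p6, plus strand, *Mt1* chr8:94178889-94179078, *Mt2* chr8:94172418-94172607) are shown because both hold metal response elements. Further matches of *Mt1* and *Mt2* lie outside the stretches shown. Of the other genes with RefSeq promoters on hand, only *Sgk1* and *Hif3a* have such elements in their windows. Capitals mark metal response elements (TGCGCNC or TGCACNC on either strand) and, first in *Mt1*, a relaxed GRE (GNACA and TGTNC, 3 bases apart).
Mt1: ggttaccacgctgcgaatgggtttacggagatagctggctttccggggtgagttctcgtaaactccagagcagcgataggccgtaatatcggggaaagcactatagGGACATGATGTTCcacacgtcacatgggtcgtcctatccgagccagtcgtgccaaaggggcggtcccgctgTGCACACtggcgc
Mt2: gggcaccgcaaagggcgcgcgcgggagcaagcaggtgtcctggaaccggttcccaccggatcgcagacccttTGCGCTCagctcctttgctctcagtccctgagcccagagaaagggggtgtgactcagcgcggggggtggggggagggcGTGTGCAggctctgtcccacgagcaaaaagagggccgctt

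Neither metallothionein gene passed the test. *Mt1* was at 58.6, 63.4 and 89.4 CPM in WT and at 69.8, 68.4 and 65.6 CPM in KO. WT c was the highest of the 6 libraries and the other 2 WT libraries were the lowest, so that the WT spread (SD 16.6 CPM) was far wider than the KO spread (SD 2.16 CPM). The log2 fold change of *Mt1* was -0.04 with an SE of 0.09 (edgeR's quasi-likelihood test, adjusted p = 0.745), and the interval of the KO level ran from 0.857 to 1.10 of the WT level. Without WT c, the log2 fold change of *Mt1* was 0.15 and passed the test (adjusted p = 0.014), so 1 library decided its direction and its call.

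*Mt2* was at 19.0, 17.2 and 22.01 CPM in WT and at 19.7, 22.04 and 20.6 CPM in KO. The groups overlapped. The log2 fold change of *Mt2* was 0.11 with an SE of 0.08 and a 95% interval from -0.07 to 0.28 (edgeR's quasi-likelihood test, adjusted p = 0.373). An antisense gene, *Gm45774*, covers 73.5% of the exon bases of *Mt2* (432 of 588), and without a stated strand setting its reads cannot be told from those of *Mt2*. The count ratio of *Mt1* to *Mt2* was 3.09, 3.69 and 4.06 in WT and 3.54, 3.10 and 3.18 in KO. This ratio does not depend on library scaling, and it overlapped between genotypes. Against the mean log2 fold change of the other 8 genes, that of the summed *Mt1* and *Mt2* was higher by 0.59, a description with no test.

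Letters of the complete or relaxed GRE were rare among promoters of all genes and were found before starts of *Sgk1* and *Mt1*. RefSeq promoters of 250 bases before to 50 after a start were on hand for 8 of the 10 genes, in 16 windows, and each motif was searched on both strands. The complete palindrome was in 3 of 32851 windows of all genes (0.00913%), 1 of which was that of *Sgk1*. The relaxed form was in 156 windows (0.475%) and in 2 of the 16, 1 of *Sgk1*, where it overlaps the palindrome, and 1 of *Mt1*. The half-site AGAACA, which the palindrome contains, was in 19.0% of all windows and in 4 of the 16, 3 of *Sgk1* and 1 of *Tsc22d3*. Metal response elements were in 25.7% of all windows and in 1 window each of *Mt1*, *Mt2*, *Sgk1* and *Hif3a*, with 3 matches in *Mt1* and 4 in *Mt2*. TGACGTCA was in 1.79% of all windows and in that of *Errfi1*. The windows of *Fkbp5* and *Klf9* held none of these letters. A match is a description of sequence and not of binding, and the receptor is known to act largely from distant enhancers.

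Levels between genes were compared per length, as CPM per kilobase of the union of annotated exons (RPKM). The order depends on these lengths, which take in all annotated transcripts and ran from 588 bases for *Mt2* to 9468 for *Fkbp5*. In WT, *Mt1* was highest at 56.6 ± 13.3 RPKM, then *Mt2* at 33.0 ± 4.14, *Hif3a* at 28.01 ± 0.365, *Zbtb16* at 22.2 ± 0.301 and *Tsc22d3* at 20.9 ± 0.858 (SD, n = 3). *Sgk1* followed at 18.2 ± 0.347 RPKM, *Nr3c1* at 14.4 ± 0.805, *Errfi1* at 11.3 ± 0.435, *Klf9* at 10.7 ± 0.905 and *Fkbp5* at 5.09 ± 0.0511. Of neighbours in this order, the WT libraries overlapped between *Errfi1* and *Klf9* alone. In KO the order changed where the falls were large. *Zbtb16* went from the fourth place to the eighth, at 7.20 ± 0.361 RPKM, and *Klf9* became the lowest of the 10 at 3.36 ± 0.0646, below *Fkbp5* at 4.11 ± 0.193.

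**Figure D3:**
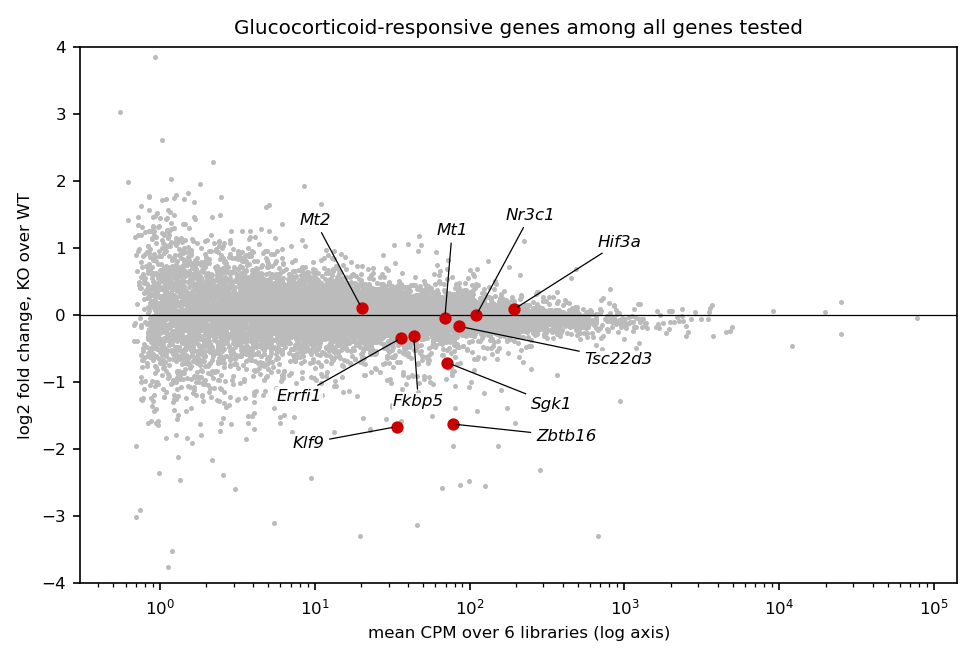
Log2 fold change, KO over WT, against mean CPM over the 6 libraries (log axis) for 13795 genes in grey, with the 10 glucocorticoid-responsive genes in red. Another 9 genes lie outside the vertical range. *Klf9* and *Zbtb16* lie at the lower edge of the cloud at their level, while *Nr3c1*, *Mt1*, *Mt2* and *Hif3a* lie near 0.

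Within a genotype, the 10 genes did not move as a block from library to library. After the genotype mean was subtracted from log2 CPM, Pearson's r over the 6 libraries was above 0 for 20 of the 45 pairs of genes and below 0 for 25, with a median of -0.066. It ran from -0.90 (*Tsc22d3* and *Hif3a*) to 0.86 (*Fkbp5* and *Zbtb16*). Without WT c the median was -0.20, with 18 pairs above 0 and 27 below, and a range from -0.977 to 0.935. These values share libraries and scaling and describe only 6 points or, without WT c, 5. Many of the deviations were small, and the part of counting noise in them was not tested. *Mt1* showed the largest single deviation, 0.37 above the WT mean in WT c on the log2 scale. The r of *Mt1* with *Mt2* was 0.74 with WT c and -0.62 without it.

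**Figure D4:**
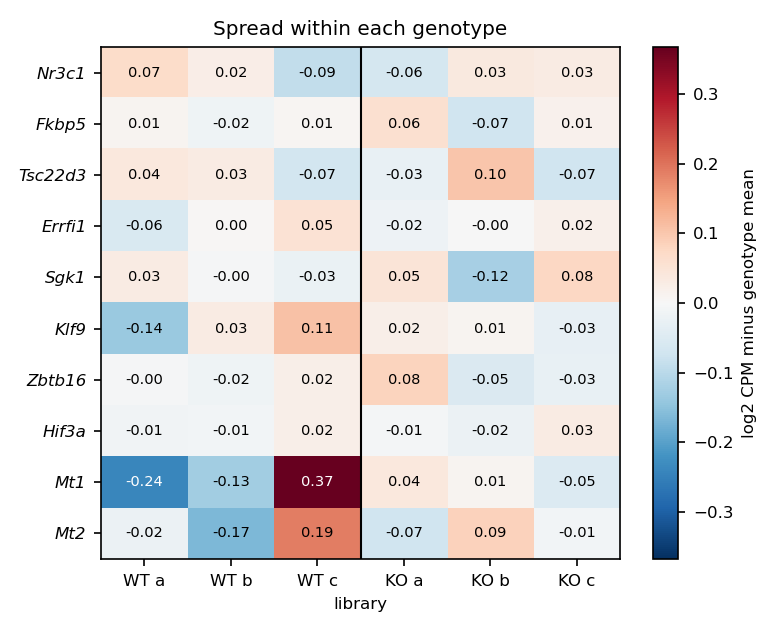
Deviation of each gene's log2 CPM from the mean of its genotype in each of the 6 libraries, with red above and blue below the mean and the value printed in each cell. Most cells lie close to 0, and *Mt1* in WT c stands out at 0.37.

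The machinery around the receptor was examined next. For this and each later list, cell type markers included, the shares of all genes tested were 15.7% lower and 14.6% higher. Of 16 chaperones and coregulators of the receptor, 6 were lower, 1 was higher and 9 did not pass the test, with a median log2 fold change of -0.053. The examples with the largest changes were *Hspa8*, a constitutive Hsp70 chaperone (985 ± 6.77 CPM in WT and 830 ± 33.4 in KO, log2 fold change -0.25), *Bag1*, an Hsp70 co-chaperone (-0.18), and *Ep300*, a histone acetyltransferase (0.19). *Fkbp4*, the co-chaperone that competes with the product of *Fkbp5* for the receptor complex, was at 178 ± 6.32 CPM in WT and 176 ± 6.19 in KO, with a log2 fold change of -0.02 (SE 0.04).

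Of 11 genes of steroid receptors and steroid metabolism, 8 were measured. Of these, 2 were lower, 1 was higher and 5 did not pass the test, with a median of 0.033. *Nr3c2*, the mineralocorticoid receptor, which also binds glucocorticoids, was at 20.8 ± 1.34 CPM in WT and 17.7 ± 0.727 in KO (log2 fold change -0.23, edgeR's quasi-likelihood test, adjusted p = 0.0245). *Abcb1b*, an efflux transporter that carries steroids, was lower (-0.73) at a low level of 3.78 CPM in WT and 2.27 in KO, and *H6pd*, which supplies NADPH to the glucocorticoid-activating enzyme, was higher (0.16). The activating enzyme gene *Hsd11b1* was at 1.03 CPM in WT and 1.11 in KO, and the inactivating enzyme gene *Hsd11b2* at 1.15 and 1.23. Both were low in both genotypes, with SEs of 0.30 on the log2 scale, so that changes in them were poorly resolved at this depth.

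A wider list of 26 genes known to respond to glucocorticoids in some tissue had 23 measured members. Of these, 16 were lower, 3 were higher and 4 did not pass the test, the median log2 fold change being -0.55. At least 1.5-fold changes that passed the test were seen for 8 lower and 2 higher genes of the 23, beside 3.2% and 2.99% of all genes. *Irs2*, an adaptor of insulin signalling, was at 124 ± 1.05 CPM in WT and 32.0 ± 1.56 in KO and fell by 1.95 on the log2 scale. *Zfp36*, which destabilises inflammatory mRNAs, fell by 1.58, and the clock gene *Per1* by 1.38, from 251 ± 13.2 to 96.5 ± 0.882 CPM. The higher genes were *Angptl4*, a lipoprotein lipase inhibitor (0.96), *Bcl6*, a repressor (0.62), and *Fbxo32*, a muscle ubiquitin ligase (0.18), of which the first 2 were at most 6.57 CPM in every library. The 4 that did not pass the test, *Klf15*, *Ddit4*, *Trim63* and *Tgm2*, and the 3 higher genes were chosen for naming after their values were seen. The log2 fold changes of the 4 genes that did not pass the test lay between -0.06 and 0.10.

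Immediate early genes, which many stimuli induce within minutes, moved beside these values. All 19 of the list were lower, the median log2 fold change being -1.75, and their summed level was 2740 to 2970 CPM in WT and 669 to 680 CPM in KO. The largest falls were those of *Fos* (-4.02), *Ctgf* (-3.29) and *Atf3* (-3.12). Of the wider glucocorticoid list, only *Dusp1* is also in this list. Without it, 15 of the other 22 were lower and 3 were higher, with a median of -0.42. The early list was chosen by name and is not complete, so this split does not set early response genes fully apart. The part of the immediate early genes in the values of *Klf9*, *Sgk1* and the other glucocorticoid-responsive genes was not tested.

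**Figure D5:**
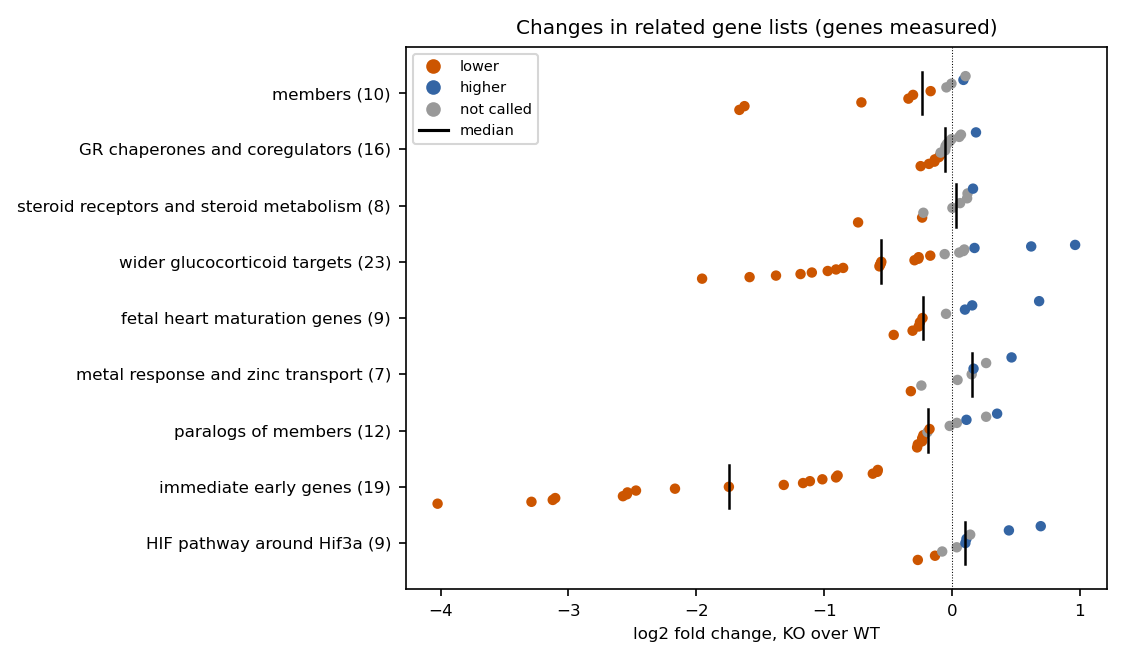
Log2 fold change, KO over WT, of the 10 glucocorticoid-responsive genes (first row) and of the measured genes in 8 related lists, with 1 point per gene coloured by call and a vertical line at each median. The immediate early genes lie wholly below 0, the wider glucocorticoid targets lie mostly below 0, and the chaperones and coregulators lie close to 0.

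Close relatives of the 10 genes were examined for the same comparison. Of 14 paralogs, 12 were measured, and 6 were lower, 2 were higher and 4 did not pass the test, with a median log2 fold change of -0.18. The Krüppel-like genes *Klf13* and *Klf16*, near relatives of *Klf9*, had log2 fold changes of -0.27 and 0.35, and that of *Klf10* was -0.19 without passing the test. The groups of *Klf16* overlapped, KO b lying below WT b and WT c (SE 0.12, edgeR's quasi-likelihood test, adjusted p = 0.0273). The relatives of *Tsc22d3* were all lower by amounts near its own -0.17, namely *Tsc22d1* (-0.22), *Tsc22d2* (-0.23) and *Tsc22d4* (-0.18). *Sgk3*, a relative of *Sgk1*, was at 21.7 ± 1.61 CPM in WT and 22.3 ± 0.506 in KO, with a log2 fold change of 0.04 (SE 0.07). *Mt3* had a log2 fold change of 0.27 that did not pass the test (edgeR's quasi-likelihood test, adjusted p = 0.0656).

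Around *Hif3a*, 9 genes of the hypoxia-inducible factor pathway were measured, and 2 were lower and 4 were higher, with a median of 0.11. *Vhl*, which marks these factors for degradation, was higher (0.69), as was the prolyl hydroxylase gene *Egln3* (0.45), while of the factor genes *Hif1a* was higher (0.11) and *Epas1* lower (-0.27). Around the metallothioneins, 7 of 8 genes of metal response and zinc transport were measured, and 1 was lower and 2 were higher, with a median of 0.15. The zinc importers *Slc39a8* and *Slc39a14* went in opposite directions (0.47 and -0.32), and the zinc exporter *Slc30a1*, a target of the metal-responsive factor, was higher (0.17). Their summed level overlapped between genotypes, at 183 CPM in WT and 182 to 184 CPM in KO.

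Of 9 genes of fetal heart maturation, 5 were lower and 3 were higher, with a median of -0.23. *Myh6*, the adult fast myosin heavy chain, fell by 0.46 and *Ryr2*, the calcium release channel, by 0.31 on the log2 scale, and *Nppa*, the atrial natriuretic peptide, was higher by 0.68. Cell type markers moved too. Of 7 cardiomyocyte markers 6 were lower and 1 was higher, with summed levels of 125000 to 129000 CPM in WT and 118000 to 120000 in KO, and they were abundant in every library. Atrial markers summed to 595 to 601 CPM in WT and 1010 to 1030 in KO (3 of 6 higher), and epicardial markers to 70.3 to 73.6 and 86.0 to 90.2 (3 of 5 higher). The higher atrial markers were *Nppa*, also in the maturation list (372 CPM in WT and 597 in KO), *Myl4* (142 and 305) and *Myl7* (46.3 and 77.7). The other 3 atrial markers did not pass the test. Endothelial and fibroblast markers were lower for 3 of 6 genes each, and none of 6 immune markers passed the test. The immune markers were low, with SEs of 0.12 to 0.23 on the log2 scale, so that changes in them were poorly resolved. Of the 4 smooth muscle markers 1 was lower and 1 higher, and the same was true of the 3 erythroid markers measured. Of 5 brown fat and adipocyte markers 2 were measured, and only *Fabp4* was lower (log2 fold change -0.10). The 1 neural marker measured did not pass the test. The part of tissue composition in the values of the 10 glucocorticoid-responsive genes was not tested.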

How the data were processed

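Total RNA of E18.5 hearts (3 WT, 3 *Pkm1*-KO) was depleted of ribosomal RNA and sequenced by the authors as paired ends. The submitters' processing notes name cutadapt 1.18, HISAT2, StringTie and the mm10 genome; the counting program and its strand setting are not given in the sources used here. The authors deposited raw counts for each gene symbol and library, and beside them their own edgeR comparison as log2 values and p-values, which was not used here. Column names give the genotype without a replicate number, and libraries were named a to c in column order. The study calls the libraries biological replicates; whether a library pooled embryos is not given.

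Counts were filtered with filterByExpr, scaled with TMM and tested with the quasi-likelihood test of edgeR 4.0.16 (R 4.3.3), genotype being the only term, with p-values adjusted by Benjamini-Hochberg across these genes and a threshold of 0.05. No gene set test was run. Intervals are 95%. Log2 CPM used a prior count of 2. The fit was tested on simulated data. No pair of libraries agreed within sampling noise. Alternatives were RLE and upper-quartile scaling, TMM without *Rn45s*, edgeR's likelihood ratio and exact tests, DESeq2 1.42.0, voom of limma 3.58.1, other filters, a prior count of 0.5 and each library left out.

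The 10 genes and the lists were chosen with earlier results of these data known. All 10 are named; from each related list, the 3 called genes with the largest changes, *Nr3c2*, *Hsd11b1*, *Hsd11b2* and paralogs are named. In the wider glucocorticoid list, the higher genes, those that did not pass and the 1 shared with the immediate early list are named outside this rule. Gene models were those of GENCODE on GRCm38 (13273 of 13809 symbols matched), and promoters those of RefSeq on GRCm38.p6 (8 of the 10 genes matched), with positions counted from 0 at the start. Plots were made in Python 3.11.15 with matplotlib 3.10.9.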

Additional observations from a re-analysis of the deposited data

How the results depend on the processing

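Under 15 alternatives, *Klf9* (log2 fold change -1.73 to -1.61), *Zbtb16* (-1.67 to -1.60), *Sgk1* (-0.75 to -0.65), *Errfi1* (-0.37 to -0.32), *Fkbp5* (-0.34 to -0.27) and *Pkm* (-1.30 to -1.26) kept direction and call. The 6 genes called lower became 5 without WT b, KO a or KO c, when *Tsc22d3* lost its call. The 1 gene called higher became 0 with DESeq2 and with edgeR's likelihood ratio test, and 0 to 2 with a library left out (2 without WT c, 0 otherwise). *Nr3c1* and *Mt1*, without a call, changed sign: *Nr3c1* was 0.014 with upper-quartile scaling and -0.048 to 0.028 with a library left out (0.0275 without WT a, 0.0046 without WT b, 0.0281 without KO a), and *Mt1* was -0.158 to 0.151, the last without WT c. With a library left out, the genes called in the lists ranged from 2 to 4 higher and 1 to 2 lower for the HIF pathway, 1 to 3 higher for metal response, 0 to 2 higher for paralogs, 0 to 1 higher and 1 to 3 lower for steroid genes, and 1 to 4 higher and 14 to 15 lower for wider targets (4 and 15 without WT c, 1 higher without KO c). DESeq2 gave 1 higher for metal response, 1 higher for paralogs (also the exact test), and 0 higher and 1 lower for steroid genes; upper-quartile scaling gave 5 higher for wider targets. Of all genes, 1639 to 2306 were lower and 1362 to 2301 higher. The cause of these changes was not tested. A library left out leaves 2 of its genotype. No paired analysis was possible because column names give only the genotype.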
